A study of Mus musculus with 14 samples.

Results

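The comparison described here sets lungs of mice given carbonized carbon fibre (group CCF, 3 arrays) against lungs of mice given the vehicle (group Ctrl, 3 arrays), which are 6 of the 14 arrays of the series. All animals were male C57BL/6N mice, and each lung was taken 6 months after a dose into the trachea. CCF mice had received 200 µg of carbon fibre per mouse as it is after the carbonization step of recycling, and Ctrl mice had received phosphate-buffered saline (PBS) without fibre. The other 8 arrays, used here for the estimate of spread and for 2 direct comparisons, are from mice given 200 µg of fibre before recycling (VCF, 4 arrays) or of fibre after the firing step (RCF, 4 arrays). The design text calls the samples independent biological samples, and no age is given. The arrays were picked by the group in their titles, not by any measured value. Each array measured total RNA of whole lung, labelled with 1 dye, so every value is an average over all the cells of that piece of tissue.

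Particles and fibres that reach the alveoli are taken up by alveolar macrophages, cells that live on the surfactant-coated surface of the air space and clear debris and surface lipid. Their identity depends on the transcription factor PPARG, and in the mouse they carry large amounts of transcripts for secreted ribonucleases of the RNase A family. Fibres too long to be taken up can persist, and chronic exposure is studied for its effects on oxidative stress, on recruited leucocytes and on scar matrix. Metallothioneins, which bind zinc and copper, and the targets of the transcription factor NRF2 are the usual readouts of metal and oxidative stress.

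Values are log2 processed signal relative to the 75th percentile of the same array, which is 0 on this scale. Differences are CCF minus Ctrl, with the standard error (SE) from limma and its p adjusted over all probes tested (Benjamini-Hochberg). The surfactant gene Sftpc and the club cell gene Scgb1a1, defining transcripts of lung epithelium, stood between 8.64 and 9.44 on all 6 arrays. The 75th percentile itself lay between 727.7 and 1345.6 intensity units on these 6 arrays. Between 25969 and 28598 of 41174 probes stood well above background on them. CCF and Ctrl arrays shared only slides 1 and 3, each with its own scan session. CCF replicate 3 and Ctrl replicate 3 lay on slide 1, and CCF replicate 1 and Ctrl replicate 1 on slide 3. Ctrl replicate 2 lay on slide 2, and CCF replicate 2 on slide 4 without a Ctrl array. Differences within slides 1 and 3 rest on 1 array of each group and have no error.

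CCF replicate 2 had a dim area near its centre and a smaller one at an edge. In these areas the median of the spots in a window of 9 rows and 5 columns lay more than 0.5 below the array's own median deviation. They covered 1623 of its 43379 spots (3.74%), between rows 218 and 399, and the lowest window was 6.65 below. VCF replicate 1, on the same slide, had 533 such spots, and the other 12 arrays had 0. Of the 14468 genes, 527 were read there on CCF replicate 2. Their median difference between CCF and Ctrl was -0.41, and -0.07 when those spots were set missing, which leaves 2 CCF arrays for them. Of the genes named below, Siglecf, Gsta3, Gpx4, Gpnmb, Adam8, Tgfbr1, Nfil3, Zbtb49, Vps35, Fndc3b, Prg4 and Hspbap1 are among these, and each is given with and without the affected spots.

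**Figure D1:**
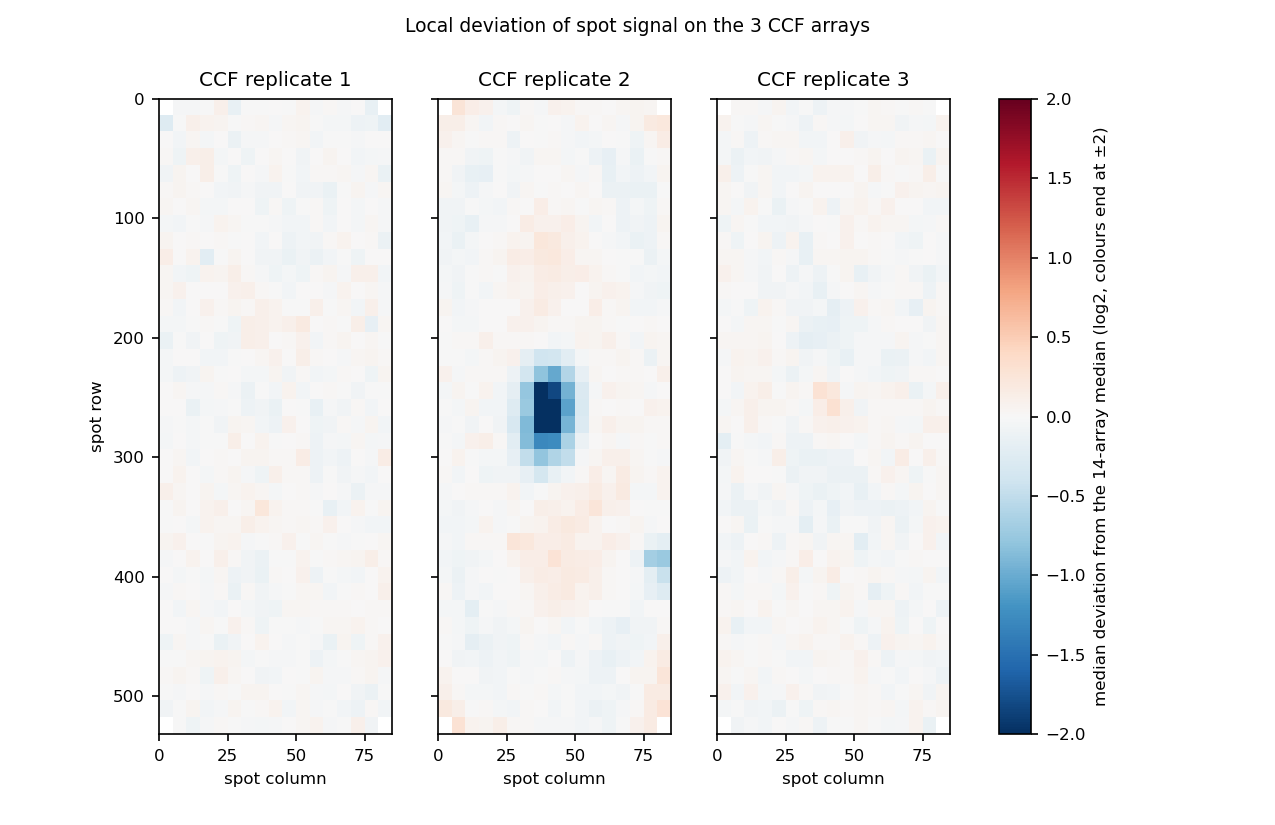
Median deviation of the spots from the median of the 14 arrays (log2, colour scale from -2 to 2) over the spot rows and columns of the 3 CCF arrays, in blocks of 14 rows and 5 columns. CCF replicate 2 shows the dim area near its centre and a smaller one at its right edge, and CCF replicates 1 and 3 show none.

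No probe passed the test between CCF and Ctrl: 0 of 29271 probes (0%) had an adjusted p under 0.05 by limma, and the smallest adjusted p was 0.217. At an unadjusted p under 0.05 there were 1930 probes (6.59%). Read per gene at the brightest probe, 365 of 14468 genes (2.52%) were higher and 451 (3.12%) lower in CCF at that unadjusted p. The 3 CCF arrays lay wholly above the 3 Ctrl arrays for 488 genes (3.37%) and wholly below them for 889 genes (6.14%). A difference below 0 was found for 58.7% of genes and one above 0 for 41.3%, with a median of -0.04. With the genes split by brightness into 4 groups of 3617, the median was 0.00 in the dimmest group, -0.01 and -0.06 in the next ones and -0.08 in the brightest. These shares are the background against which the counts below are to be read, and none of the genes below passed the adjusted test.

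Transcripts of alveolar macrophages lay lower on the CCF arrays. All 17 tested genes of a list of alveolar macrophage markers had a difference below 0, with a median of -0.44 against -0.04 over all genes. None passed the adjusted test by limma (smallest adjusted p = 0.587). This list, like those below, was chosen with earlier results of these data known, so its counts are no independent support. Of the 17, 8 had an unadjusted p under 0.05, where the background for lower genes is 3.12%, and 6 had all CCF arrays below all Ctrl arrays, where it is 6.14%. With the dim area left out, the median was -0.42 and the count at an unadjusted p under 0.05 was again 8. Each array was given a list score, which takes each gene's distance from its mean over Ctrl and then the median over the list. It was -0.02, 0.06 and -0.01 on the Ctrl arrays and -0.29, -0.40 and -0.61 on CCF replicates 1, 2 and 3. The score groups did not overlap. The median difference was -0.47 within slide 1 and -0.21 within slide 3, and -0.30 without CCF replicate 3, the lowest array. In whole lung, fewer cells of a type and less RNA per cell cannot be told apart.

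The ribonuclease genes made up 3 of the 12 lower genes of smallest p. Ear1, an eosinophil-associated ribonuclease that alveolar macrophages carry in quantity, stood at 4.30, 4.29 and 4.15 on the Ctrl arrays and at 3.71, 3.35 and 2.88 on the CCF arrays. The difference was -0.93 (SE 0.20, adjusted p = 0.587), which is 1.91-fold lower. Ear6, of the same family, stood at -1.76, -1.95 and -2.14 in Ctrl and -2.61, -2.88 and -3.23 in CCF, a difference of -0.96 (SE 0.19, adjusted p = 0.587) or 1.94-fold lower. For both genes every Ctrl array stood above every CCF array, and CCF replicate 3 was the lowest. Rnase2a, a further member, stood at 5.35, 5.49 and 5.40 in Ctrl and 4.96, 4.69 and 4.65 in CCF, with a difference of -0.65 (SE 0.15, adjusted p = 0.587). Within slide 1 the differences of Ear1, Ear6 and Rnase2a were -1.27, -1.09 and -0.75, and within slide 3 they were -0.59, -0.85 and -0.39. Members of this family are close in sequence and a probe of one can take up RNA of another, so the share of each gene is uncertain.

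Pparg, the transcription factor on which alveolar macrophages depend, was among the tightest measurements. It stood at 1.70, 1.73 and 1.73 in Ctrl and 1.27, 1.16 and 1.30 in CCF, a difference of -0.47 (SE 0.11, adjusted p = 0.587). The gap between the groups was wider than the range within either of them, and the difference was -0.43 within slide 1 and -0.42 within slide 3. Fabp1, a fatty acid carrier, stood at 3.12, 3.01 and 3.05 in Ctrl and 2.25, 2.93 and 2.00 in CCF, where the groups were apart but CCF replicate 2 was close to the Ctrl arrays. Krt79, a keratin found in these cells, differed by -0.58 (SE 0.20). Atp6v0d2, a subunit of the proton pump of lysosomes, differed by -0.74 (SE 0.25), and both had their groups apart. Marco, a scavenger receptor for inhaled particles, ran from 3.99, 3.15 and 2.06 on Ctrl replicates 1 to 3 to 2.30, 2.43 and 1.77 in CCF. Its difference was -0.90 (SE 0.41), the groups overlapped, and the Ctrl arrays alone spread over more than that difference. Chil3, a chitinase-like protein secreted by macrophages, differed by -0.29 (SE 0.16) with overlapping groups. The highest value of the list was -0.04. Siglecf, a lectin of alveolar macrophages and eosinophils, differed by -1.18, and by -0.42 without the dim spot on CCF replicate 2. Krt19 and Cidec of this list are also on the lists for mesothelium and fat, and their groups overlapped.

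**Figure D2:**
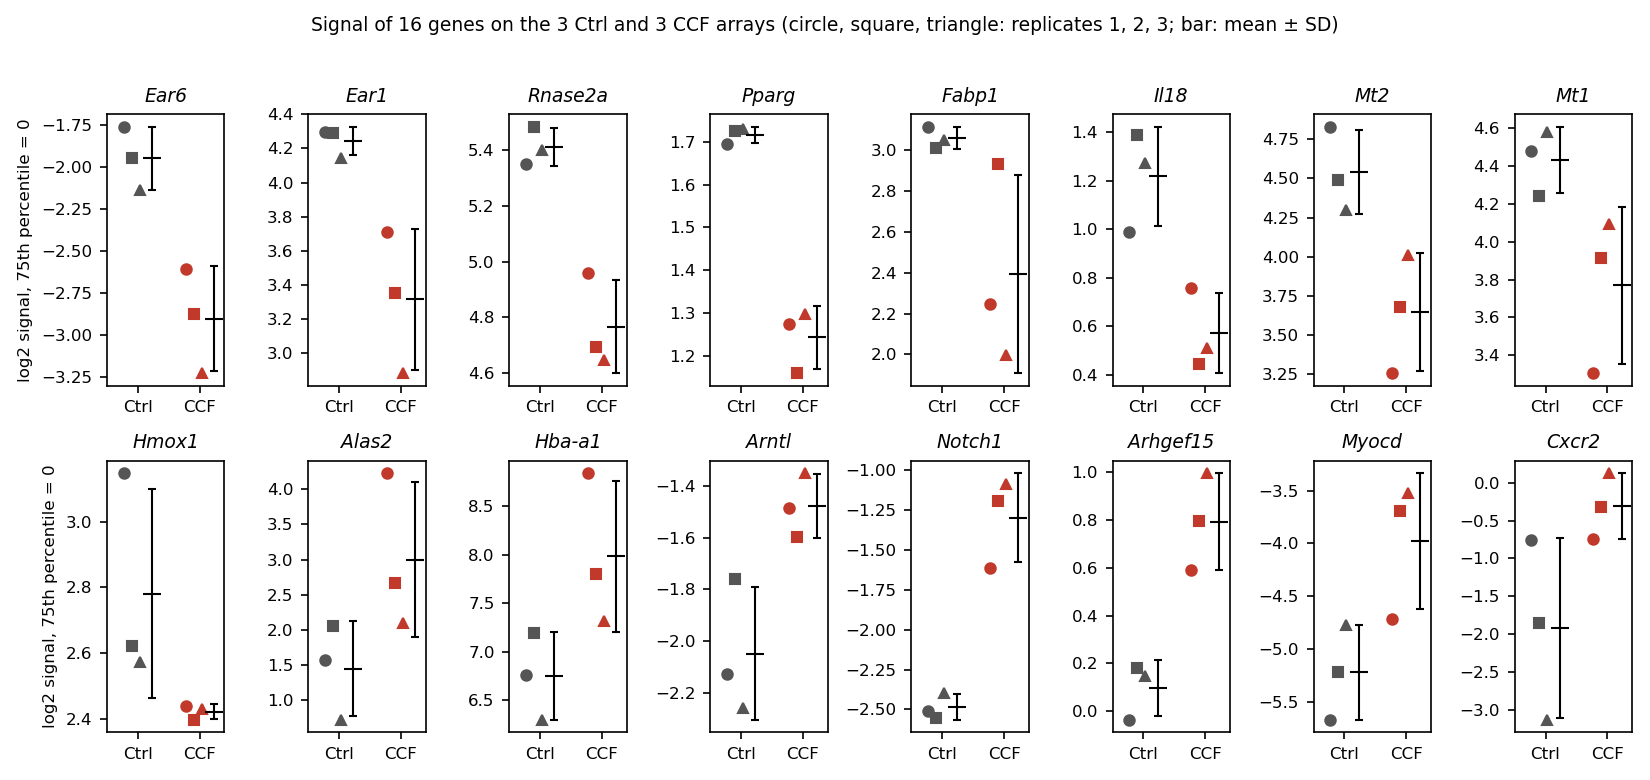
Log2 signal of 16 genes (75th percentile of each array at 0, each panel with its own axis) on the 3 Ctrl arrays (grey) and 3 CCF arrays (red), with mean and SD beside the points. The 3 CCF arrays lie below the 3 Ctrl arrays for the genes of the upper row and Hmox1, and above them for the other genes of the lower row.

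Genes of other mononuclear phagocytes gave smaller differences. Of 14 tested genes of a monocyte and interstitial macrophage list, 10 were lower and 4 higher, with a median of -0.29, 0 at an unadjusted p under 0.05 and 0 with the groups apart. The median was 0.25 within slide 1 and -0.36 within slide 3, so the direction turned between the slides. Cd14, a receptor for bacterial lipid, differed by -0.34 (SE 0.17). Cx3cr1, the fractalkine receptor of monocytes, differed by 0.83 (SE 0.57) and was high on CCF replicate 3 alone, and its other tested probe gave -0.05. Of 22 tested genes of lysosome and lipid handling in phagocytes, 18 were lower, 1 in each direction had an unadjusted p under 0.05, and the median was -0.22. Without the dim spots the median was -0.17 and 17 were lower. Lamp2, a lysosome membrane protein, differed by -0.24 (SE 0.12), and the protease Ctsd by -0.23 (SE 0.12), though their other tested probes gave 0.02 and 0.00. Atp6v1a, another proton pump subunit, was higher by 0.58 (SE 0.24). Gpnmb, a glycoprotein of lipid-loaded macrophages, stood at -1.79, -1.41 and -1.57 in Ctrl and -1.77, -2.68 and -1.27 in CCF. Its difference of -0.32 became 0.07 when the dim spot was left out, so its direction rests on that spot. Spp1, osteopontin, differed by -0.40 (SE 0.25) with overlapping groups.

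Chemokines and cytokines lay mostly lower, with wide spread among the Ctrl arrays. Of 16 tested CC chemokines 14 were lower, 2 at an unadjusted p under 0.05, with a median of -0.39 and 0 with the groups apart. The median was 0.51 within slide 1 and -0.50 within slide 3. Ccl6, made by macrophages at rest, stood at 5.97, 5.51 and 4.79 in Ctrl and 4.68, 4.76 and 4.81 in CCF. The 3 CCF arrays lay close together, and Ctrl replicate 3 stood among them. Ccl2, the main attractant of monocytes, stood at 0.11, -0.23 and -0.77 in Ctrl and -1.35, -1.21 and -0.36 in CCF, a difference of -0.67 (SE 0.30, adjusted p = 0.747) with overlapping groups. Ccl20 was higher by 0.50 (SE 1.00) on average, with arrays of both groups between -4.30 and -0.47. Of 16 tested cytokine and inflammasome genes 13 were lower, 1 at an unadjusted p under 0.05, with a median of -0.26. The median was 0.31 within slide 1 and -0.48 within slide 3. The gene with that p, Il18, a cytokine released through the inflammasome, stood at 0.99, 1.39 and 1.27 in Ctrl and 0.76, 0.45 and 0.51 in CCF. Its groups did not overlap, and the difference was -0.65 (SE 0.18, adjusted p = 0.623). Il1b, the other main inflammasome product, ran from 3.84, 1.34 and 0.49 on Ctrl replicates 1 to 3 to 1.88, 2.14 and 2.69 in CCF, a difference of 0.35 (SE 0.66) that is smaller than its own error. The neutrophil gene S100a8 differed by 0.10 (SE 0.59), and Saa3, an acute phase protein, by -0.49 (SE 1.08). Saa3 was 3.48 within slide 1 and -2.84 within slide 3.

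Of 8 tested eosinophil genes 6 were lower, 2 of them at an unadjusted p under 0.05 and apart, with a median of -0.33. The other 2, Cd24a and Adgre4, were higher by at most 0.12. The median was -0.03 within slide 1 and -1.12 within slide 3. The genes that stood apart were Ear6, described above, and Il5ra, through which eosinophils sense interleukin 5. Il5ra stood at -5.80, -5.05 and -6.00 in Ctrl and -7.61, -6.12 and -6.52 in CCF and was well above background on 3 of 3 Ctrl arrays and 0 of 3 CCF arrays. The granule genes Epx and Prg3, which define these cells, were too dim to be tested. Among genes of type 2 responses, Il4, the cytokine that drives them, differed by -0.61 (SE 0.35) with the groups apart. Chil4, a chitinase-like protein, differed by -0.47 (SE 0.17), and Mrc1, the mannose receptor, by -0.44 (SE 0.17). The list had 11 of 17 genes lower and 6 higher, among them Itln1 and Clec10a, with a median of -0.09. The largest rise in it was 1.62.

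Both metallothioneins that are expressed throughout the body were lower in CCF. Mt2 stood at 4.83, 4.49 and 4.30 in Ctrl and 3.26, 3.68 and 4.01 in CCF, a difference of -0.89 (SE 0.19, adjusted p = 0.587) or 1.85-fold lower. Mt1 stood at 4.48, 4.24 and 4.58 in Ctrl and 3.30, 3.91 and 4.10 in CCF, a difference of -0.66 (SE 0.22, adjusted p = 0.637) or 1.59-fold lower. Neither gene's groups overlapped. For both, CCF replicate 1 was lowest and CCF replicate 3 nearest to the Ctrl arrays. The Mt2 difference was -0.29 within slide 1 and -1.57 within slide 3, and that of Mt1 was -0.49 and -1.18. Mtf1, the zinc sensor that activates both, stood at -1.43, -1.36 and -1.51 in Ctrl and -1.93, -1.83 and -1.83 in CCF, a difference of -0.43 (SE 0.12, adjusted p = 0.62). The other genes of the zinc list differed less or the other way. Slc39a14, a zinc importer, was higher by 0.45 (SE 0.24) with the groups apart, though its other tested probe gave -0.39. Mt3, the brain form, was higher by 0.35 (SE 0.22) with overlap. The median of the 7 tested genes was -0.02. The metallothioneins are also targets of glucocorticoids, and 7 of 11 genes of that list were lower, with a median of -0.15, 1 of them (Mt2) at an unadjusted p under 0.05. Leaving out Ctrl replicate 2 moved that median to -0.38, and leaving out Ctrl replicate 1 moved it to 0.20.

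The stretches upstream of the RefSeq start of Mt1 and Mt2, neighbours on chromosome 8, are shown because the genes lay lower together. That of Alas2, whose product starts haem synthesis in red cell precursors and whose transcript was higher, is given for contrast. They are taken from RefSeq on GRCm38.p6, 250 bases before the annotated start, all on the plus strand, at chr8:94178839-94179088, chr8:94172368-94172617 and chrX:150547167-150547416. Capitals mark the core of the metal response element (TGCACNC or TGCGCNC on either strand) in Mt1 and Mt2, and the GATA site AGATAA on either strand in Alas2.
Mt1: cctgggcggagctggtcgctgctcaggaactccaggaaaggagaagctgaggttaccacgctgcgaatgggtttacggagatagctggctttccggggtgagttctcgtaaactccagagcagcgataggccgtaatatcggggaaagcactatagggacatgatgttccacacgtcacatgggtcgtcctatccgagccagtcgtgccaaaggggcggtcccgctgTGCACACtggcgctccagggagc
Mt2: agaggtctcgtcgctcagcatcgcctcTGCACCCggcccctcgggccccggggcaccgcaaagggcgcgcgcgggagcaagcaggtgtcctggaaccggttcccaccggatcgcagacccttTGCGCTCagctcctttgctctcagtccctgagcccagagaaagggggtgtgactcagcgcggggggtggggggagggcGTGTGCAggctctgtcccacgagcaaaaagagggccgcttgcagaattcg
Alas2: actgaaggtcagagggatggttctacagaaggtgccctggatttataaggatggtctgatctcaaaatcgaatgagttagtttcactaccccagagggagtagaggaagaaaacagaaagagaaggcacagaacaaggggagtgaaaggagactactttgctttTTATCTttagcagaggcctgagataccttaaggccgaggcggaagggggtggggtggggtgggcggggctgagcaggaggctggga
Mt1 held 1 match to the metal response core and Mt2 held 3. A match is found in 21.5% of 32536 distinct upstream windows of this length. Of the 7 genes of the zinc list with a window, 4 held one: Mt1, Mt2 and the zinc transporters Slc30a1 and Slc30a2, of which the latter has no probe named so. Alas2 held 1 GATA match, 9.97% of windows held at least 1, and 3 of 9 red cell genes with a window held one. A gene of a list is counted if any of its windows held a match. The percentages are over distinct windows, so the counts by gene are not like measures. The marked matches do not overlap each other. They are letters in these windows and no measure of binding, and the RefSeq start can differ from the start used in the lung.

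Targets of NRF2 leaned the same way as the metallothioneins. Of 19 tested, 15 were lower, 6 at an unadjusted p under 0.05, and 4 with the groups apart, with a median of -0.20. Over all genes these shares were 58.7%, 3.12% and 6.14%. Without the dim spot of Gsta3, 5 had an unadjusted p under 0.05. Within slide 1 the median was -0.14 and within slide 3 it was -0.37. It was -0.07 without Ctrl replicate 1, which was the highest of the 6 arrays for Cbr3, Srxn1 and Hmox1. Against the same Ctrl arrays the list median was -0.24 in VCF and -0.26 in RCF, so the lower level was not particular to CCF. Cbr3, a carbonyl reductase, stood at 5.57, 4.84 and 5.01 in Ctrl and 4.39, 4.71 and 4.32 in CCF, a difference of -0.66 (SE 0.21, adjusted p = 0.637). Srxn1, which repairs oxidized peroxiredoxins, differed by -0.54 (SE 0.17). Hmox1, which breaks down haem, stood at 3.15, 2.62 and 2.57 in Ctrl and 2.44, 2.40 and 2.43 in CCF. The 3 CCF arrays were nearly equal, and the spread was in Ctrl. Gsta3, a glutathione transferase, differed by -0.69, and by -0.34 without the dim spot. Gclc and Gclm, the subunits of the enzyme that limits glutathione synthesis, were higher by 0.16 (SE 0.21) and 0.12 (SE 0.21), differences below their errors. A match to the core of the antioxidant response element (TGACNNNGC on either strand) was found upstream of 5 of 16 of these genes with a window. They were Gclm, Txnrd1, G6pdx, Gsta3 and Abcc4. Of all distinct windows 10.2% held a match, which is a share per window and not per gene. Among other antioxidant enzymes, 12 of 15 were lower with a median of -0.06, close to that of all genes. Of these, Prdx1 differed by -0.32 (SE 0.14), and Gpx4, which reduces lipid peroxides, by -0.57, or -0.14 without the dim spot. Under quantile normalization and cyclic loess the median of that list was 0.01 and 0.04.

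Red cell transcripts were higher in CCF. Of 13 tested, 12 were higher, 5 at an unadjusted p under 0.05 (background 2.52%) and 4 with the groups apart (background 3.37%), with a median of 0.42. The score was 0.20, -0.17 and -0.45 on Ctrl replicates 1, 2 and 3 and 1.24, 0.23 and 0.03 on the CCF replicates. CCF replicate 1 and, narrowly, CCF replicate 2 lay above every Ctrl array, and CCF replicate 3 did not. The median was 0.13 without CCF replicate 1, and 0.45 and 0.66 within slides 1 and 3. Alas2 stood at 1.57, 2.06 and 0.71 in Ctrl and 4.23, 2.67 and 2.10 in CCF, a difference of 1.55 (SE 0.48, adjusted p = 0.637) or 2.93-fold higher. Hba-a1, an alpha globin whose near-identical copy may share its probe, stood at 6.76, 7.20 and 6.30 in Ctrl and 8.84, 7.80 and 7.32 in CCF, a difference of 1.23 (SE 0.32, adjusted p = 0.599). In both genes the groups were apart, and CCF replicate 1 was the highest array. Klf1, a transcription factor of red cell precursors, went the other way, at -0.94, with an unadjusted p under 0.05 by limma and the groups apart. It was above background on 2 Ctrl arrays and 0 CCF arrays. The scores of the other fibre groups, which are compared with the same Ctrl arrays, lay between 0.60 and 1.16 in VCF and between 0.42 and 0.80 in RCF.

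The 12 higher genes of smallest p were of several kinds. Notch1, the receptor by which neighbouring cells set each other's fate, stood at -2.51, -2.55 and -2.40 in Ctrl and -1.61, -1.20 and -1.09 in CCF. The difference was 1.19 (SE 0.21, adjusted p = 0.474) or 2.28-fold higher, 1.31 within slide 1 and 0.89 within slide 3. Foxn3, a forkhead repressor, differed by 0.65 (SE 0.12), and its other tested probe gave 0.87. Arhgef15, a gene of endothelium, stood at -0.04, 0.18 and 0.15 in Ctrl and 0.59, 0.79 and 0.99 in CCF, a difference of 0.70 (SE 0.15). Cbfa2t3, a corepressor of blood cell genes, differed by 0.77 (SE 0.17) with 0.89 at its other probe. Vgll4, a cofactor that restrains TEAD factors, differed by 0.90 (SE 0.20). Phactr1, which binds actin and protein phosphatase 1, differed by 0.81 (SE 0.19) with 0.27 at its other probe. Banp, a nuclear matrix protein, Ccnjl, a cyclin-like protein, and Cldnd1, a membrane protein, differed by 1.15, 1.01 and 0.82. In all these genes the 3 CCF arrays lay above the 3 Ctrl arrays, which the rule that named them required. The remaining 3 of the 12, the odorant receptor Olfr1495, the trace amine receptor Taar4 and the nuclear receptor Nr2c2, were dim. Olfr1495, the gene of smallest p, stood at -6.31, -6.79 and -6.78 in Ctrl and -4.05, -4.21 and -4.97 in CCF. With normexp background correction the differences of Olfr1495, Taar4 and Nr2c2 were -0.11, -0.22 and -0.11, so their direction was not kept. That alternative started from the raw median signal of each spot and added an offset of 50, and the cause of the turn was not tested.

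Smooth muscle genes were higher in 9 of 10 tested, with a median of 0.28, where 41.3% of all genes were higher. Of the 10, 3 were at an unadjusted p under 0.05 (background 2.52%) and apart (background 3.37%). The score ran from -0.22 to 0.12 on the Ctrl arrays and from 0.20 to 0.29 on the CCF arrays, and the groups did not overlap. The median was 0.14 within slide 1 and 0.48 within slide 3. Against the same Ctrl arrays it was 0.19 in VCF and 0.17 in RCF, so the rise was not particular to CCF. Scores lay between 0.10 and 0.24 in VCF and between -0.05 and 0.28 in RCF. Myocd, the coactivator that turns on the contractile genes of smooth muscle, stood at -5.67, -5.22 and -4.77 in Ctrl and -4.71, -3.69 and -3.53 in CCF, a difference of 1.24 (SE 0.31, adjusted p = 0.587), with 0.93 at its other probe. Cald1 and Smtn, proteins of the contractile filaments, differed by 0.74 (SE 0.26) and 0.36 (SE 0.16). The actin gene Actg2 and Tagln, a protein of the same filaments, differed by 0.30 and -0.09 with overlapping groups. Heart muscle genes, which the walls of pulmonary veins also express in mice, had 10 of 11 higher and a median of 0.54, with scores from -1.64 to 0.66 in Ctrl and from -1.20 to 2.05 in CCF. That median was -0.15 without CCF replicate 2, -0.10 without Ctrl replicate 2, 1.61 without CCF replicate 1, -0.42 with slide as a block and -2.20 within slide 3. Their part in the smooth muscle result was not tested.

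Endothelial genes had 12 of 18 higher and a median of 0.09. The junction protein Cldn5 differed by 0.21 (SE 0.12) with the groups apart, Angpt1, a ligand that stabilizes vessels, by 0.46 (SE 0.21), and Edn1, the vasoconstrictor endothelin, by -0.36 (SE 0.27). Vegfa, the main growth factor of vessels, stood at 4.99, 5.08 and 4.95 in Ctrl and 4.86, 4.58 and 4.78 in CCF, a difference of -0.27 (SE 0.14) with the groups apart, and its other tested probes gave -0.25 to 0.46. Collagens lay at the median of all genes: 6 of 15 were higher and 9 lower, 0 at an unadjusted p under 0.05, with a median of -0.05. Col1a1, the main collagen of scar, stood at 3.66, 3.59 and 2.70 in Ctrl and 3.77, 3.21 and 3.11 in CCF, a difference of 0.04 (SE 0.28). Of 23 scar and TGF-beta genes 11 were higher. Smad7, the inhibitory SMAD that TGF-beta itself induces, differed by 0.51 (SE 0.16) with the groups apart, and Tgfb2, a ligand, by 0.47 (SE 0.16). The receptor Tgfbr1 gave -3.39, the lowest value of the list, and -0.26 without the dim spot on CCF replicate 2, and its other tested probe gave 0.23. Timp1, an inhibitor of matrix proteases, ran from 2.03 to 3.24 in Ctrl and stood at 1.70, 1.48 and 2.38 in CCF. Its difference of -0.94 (SE 0.37) was 0.35 within slide 1 and -1.41 within slide 3. Timp2 was higher by 0.86 (SE 0.42) with overlapping groups.

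**Figure D3:**
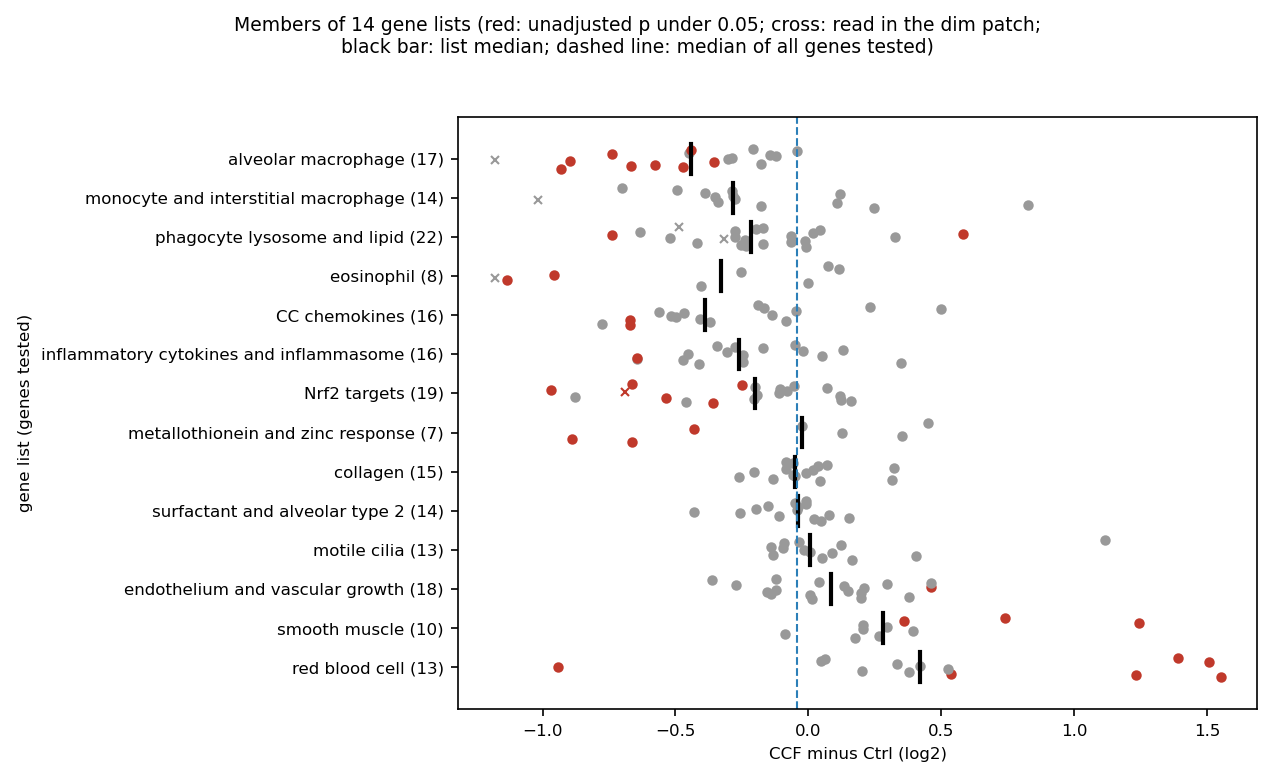
CCF minus Ctrl (log2) of each tested gene in 14 gene lists, with the list median as a black bar and the median of all 14468 genes as a dashed line at -0.04. Alveolar macrophage genes all lie below 0, 12 of 13 red cell genes lie above it, and collagen and surfactant genes scatter about the dashed line.

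Epithelial lists lay near the median of all genes. Surfactant and alveolar type 2 genes had a median of -0.04, alveolar type 1 genes -0.03, airway secretory genes -0.02 and motile cilia genes 0.01, each with 0 genes at an unadjusted p under 0.05. Sftpc differed by 0.15 (SE 0.22) and Scgb1a1 by 0.06 (SE 0.16). Under quantile normalization these were -0.04 and -0.08. Airway secretory scores spread widely, at -1.56, 1.02 and 0.22 on the CCF arrays. Reg3g, an antimicrobial lectin of the airways, stood at 2.17, 3.02 and 2.80 in Ctrl and -1.88, 4.07 and 3.58 in CCF, so 1 CCF array was low and 2 were high. Of genes of cell division 25 of 27 were lower, where 58.7% of all genes were, 0 at an unadjusted p under 0.05, with a median of -0.18. Without the dim spots 24 were lower with a median of -0.12. Pcna, the clamp of DNA polymerase, differed by -0.29 (SE 0.14), and the median of the list was 0.57 within slide 1 and -0.46 within slide 3. Against the same Ctrl arrays that median was -0.25 in VCF and -0.33 in RCF, both lower than in CCF.

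Among lymphocyte genes, Prf1, the pore-forming protein of killer cells, stood at -1.37, -2.30 and -2.34 in Ctrl and -0.87, -1.50 and -0.89 in CCF, a difference of 0.92 (SE 0.35, adjusted p = 0.714) with overlapping groups. Eomes, a transcription factor of the same cells, differed by 0.88 (SE 0.40) with the groups apart. The granzymes did not go with them: Gzma differed by -0.20 and Gzmb by -0.17, and the list of 13 had a median of -0.01. T cell genes had a median of 0.09. B cell genes were lower in 10 of 11, with a median of -0.19 and 0 of them at an unadjusted p under 0.05. Pax5, the remaining one, was higher by 0.26. Genes of developing thymus cells were high on CCF replicates 2 and 3. Rag1, which cuts receptor genes in immature lymphocytes, stood at -8.17, -8.88 and -8.67 in Ctrl and -8.10, -4.14 and -0.93 in CCF. It cleared the background on those 2 CCF arrays and on 0 Ctrl arrays. CCF replicate 1, at -8.10, lay near Ctrl replicate 1, at -8.17, and showed no rise. The summed signal of the 5 tested thymus genes was 3.73 to 4.22 in Ctrl and 3.97 to 6.32 in CCF, and 3 others (Rag2, Ptcra and Arpp21) were too dim to be tested. The part of thymus RNA in the lymphocyte differences was not tested. Cxcr2, the chemokine receptor of neutrophils, stood at -0.76, -1.85 and -3.13 in Ctrl and -0.74, -0.31 and 0.13 in CCF, a difference of 1.60 (SE 0.65). CCF replicate 1 and Ctrl replicate 1 differed by 0.01. The neutrophil list had 6 of 13 higher with a median of -0.15, which was 1.47 within slide 1, -1.18 within slide 3 and 0.65 without Ctrl replicate 1. Stat2, which carries interferon signals, differed by 0.71 (SE 0.24) with the groups apart, while the interferon list had a median of -0.01.

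Several of the largest differences were led by 1 array. Mup4, a major urinary protein made by the liver, stood at -5.12, -5.02 and -5.01 in Ctrl and -2.36, 1.04 and -4.59 in CCF. Its difference of 3.08 (SE 1.65, adjusted p = 0.785) was 1.58 without CCF replicate 2. Mup3, Cyp3a41a and Apoa2 differed by 2.08, 1.88 and 1.72 with the same array highest. All 9 tested liver genes were higher, with a median of 1.72 and scores of 0.63, 3.86 and -0.01 on the 3 CCF arrays against -0.42 to 0.33 in Ctrl. The summed signal of the list was 9.34 to 11.1 in Ctrl and 10.4 to 18.6 in CCF, and Apoa1, Ttr and Fga were too dim to be tested. VCF and RCF arrays reached scores of 1.76 and 4.28. Fbxw24, an F-box gene, and Syt13, a synaptotagmin, differed by 2.47 (SE 0.81) and 1.82 (SE 0.62) and were not above background on all Ctrl arrays. The other tested probe of Syt13 gave 0.47. With normexp the values for Fbxw24, Cyp3a41a and Apoa2 were -0.37, -0.12 and -0.05. Fat genes had a median of 0.33 and scores of -0.64, 1.15 and 0.96 on the CCF arrays.

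Heat shock genes varied by array, and some clock genes by group. Hspa1a, the inducible heat shock protein, stood at 1.66, 1.04 and 1.82 in Ctrl and 3.59, 3.61 and 1.28 in CCF. It was high on CCF replicates 1 and 2 and not on replicate 3, and Hspa1b behaved alike at 1.69, 0.91 and -1.10. Arntl, the core activator of the circadian clock, stood at -2.13, -1.76 and -2.26 in Ctrl and -1.49, -1.60 and -1.35 in CCF, a difference of 0.57 (SE 0.17, adjusted p = 0.635) with the groups apart. Dbp, an output of the clock that runs opposite to Arntl, differed by -0.39 (SE 0.16) with the groups apart. Per1 differed by -0.36 (SE 0.37) and Nr1d1 by 0.36 (SE 0.26), both with overlap. Nfil3 gave -2.31, and 0.23 without the dim spot, and its other tested probe gave 0.41. The hour of the day at which lungs were taken is not given in the sources used here. Egr2, an immediate early gene, differed by -0.51 (SE 0.22) with the groups apart. Cyp1b1, a cytochrome P450 induced through the aryl hydrocarbon receptor, stood at -0.45, -0.36 and -0.44 in Ctrl and -0.81, -0.87 and -0.75 in CCF, a difference of -0.39 (SE 0.12). Cyp1a1, induced by the same receptor, ran from 1.21, -3.04 and -2.91 in Ctrl to -2.16, -2.85 and -3.40 in CCF, with Ctrl replicate 1 alone high.

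**Figure D4:**
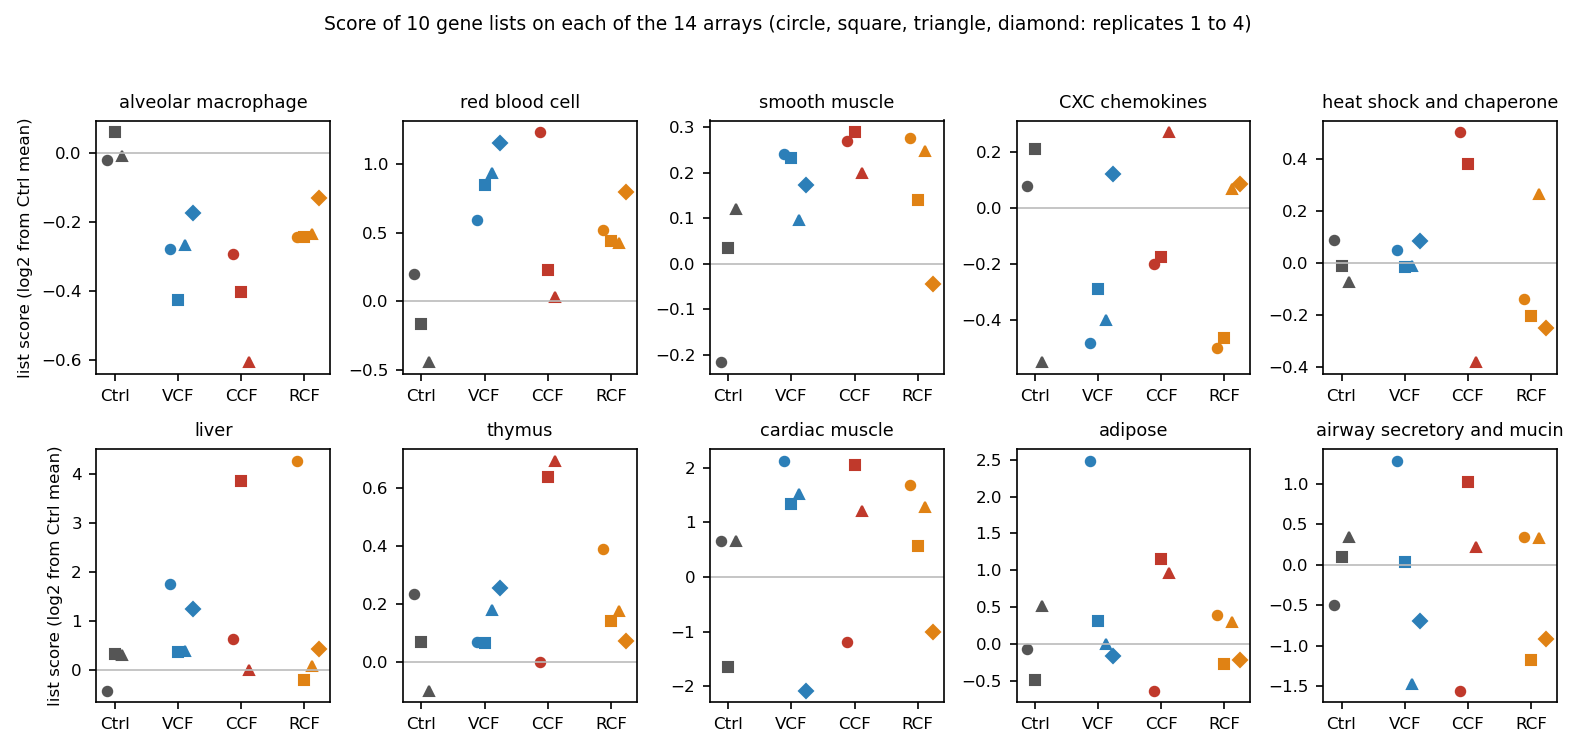
Score of 10 gene lists (median over the genes of the log2 difference from the Ctrl mean) on each of the 14 arrays, by group. The CCF arrays lie below the Ctrl arrays in the alveolar macrophage panel, and in the liver panel CCF replicate 2, at 3.86, and 1 RCF array, at 4.28, stand apart from the others.

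The lists not yet described had medians between -0.19 and 0.22, against -0.04 over all genes. Complement genes had 13 of 17 lower with a median of -0.19, and antigen presentation by class II had 7 of 9 lower with a median of -0.19, each with 0 at an unadjusted p under 0.05. Within slide 1 these medians were 0.19 and 0.08. CXC chemokines had a median of -0.10, acute phase genes -0.02, mast cell genes -0.05 and mesothelial genes 0.01. Genes of mitochondrial respiration had 15 of 22 lower with a median of -0.04. Among them Ndufb8, a subunit of complex I, stood at 6.35, 6.21 and 6.31 in Ctrl and 5.84, 6.02 and 6.04 in CCF, a difference of -0.33 (SE 0.15) with the groups apart. Targets of p53 had a median of -0.05, amino acid stress genes -0.10 and matrix proteases with their inhibitors 0.05. Adam8, a surface protease of myeloid cells, differed by -0.67, and by -0.36 without the dim spot. Sterol and lipid genes had a median of 0.03 with members on both sides. Scd1, which desaturates fatty acids, was higher by 0.26 (SE 0.14), and Cpt1a, which admits fatty acids to mitochondria, differed by -0.47 (SE 0.16), both with the groups apart. Cytochrome P450 genes had 10 of 13 lower and a median of -0.14. Skeletal muscle genes had 8 of 10 higher and a median of 0.22.

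The other lower genes of smallest p were of mixed kinds. Ghrl, the peptide hormone ghrelin, stood at -0.40, -0.59 and -0.34 in Ctrl and -1.10, -1.17 and -1.14 in CCF, a difference of -0.69 (SE 0.15, adjusted p = 0.587), with -0.78 at its other probe. Lipf, gastric lipase, differed by -0.81 (SE 0.18). Clec1a, a lectin receptor of endothelium and myeloid cells, stood at 1.98, 2.09 and 2.08 in Ctrl and 1.61, 1.44 and 1.43 in CCF, a difference of -0.55 (SE 0.12). Mphosph6, a factor of ribosomal RNA processing, differed by -0.48 (SE 0.12) and the membrane protein gene Tmem82 by -0.51 (SE 0.12). Hspbap1 differed by -0.71, and by -0.72 without the dim spot. Each of these 6 genes had its groups apart, as the rule that named them required.

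Of the 8 lower genes of largest difference, 4 lay in the dim area. Vps35, a subunit of the retromer that sorts membrane proteins, read 3.82, -0.60 and 3.87 on the CCF arrays. Its difference was -1.68, and -0.20 without the dim spot, and its other tested probes gave -0.12 to 0.62. Zbtb49, a zinc finger gene, went from -2.58 to -0.22, Fndc3b from -1.58 to -0.44 (its other tested probe gave 0.16), and Prg4, the lubricating proteoglycan, from -2.11 to -1.49. Outside it lay Vsx1 and Ms4a3, a gene of granulocyte precursors, both with 0 CCF arrays above background, Sult2a2, a sulfotransferase, at -1.37 (SE 0.52), and Calcr. Calcr, the calcitonin receptor, was above background on all 6 arrays and stood at -3.31, -1.98 and -2.11 in Ctrl and -3.45, -4.07 and -3.98 in CCF, a difference of -1.37 (SE 0.41). Its gap was -1.87 within slide 1 and -0.14 within slide 3.

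More probes were above background in Ctrl alone than in CCF alone, and both counts are small beside the 29271 probes tested. Well above background on 3 of 3 Ctrl and 0 of 3 CCF arrays were 79 of 29271 probes, 44 of them with a symbol. Of those 44, 16 were for olfactory and vomeronasal genes. The share of such genes among all probes tested was not counted, so no excess is read from this. On 3 of 3 CCF and 0 of 3 Ctrl arrays, 2 of 29271 probes were well above background, both without a symbol. The largest lower bounds were at least 1.95-fold lower for Vsx1, a homeobox gene of the eye, 1.74-fold for Kir3dl2, a killer cell receptor, and 1.57-fold for Il5ra. Vmn1r51 and 1700109H08Rik were at least 1.52-fold and 1.42-fold lower. A bound is the mean of the Ctrl arrays against the lowest signal that counted as well above background on each CCF array, or the probe's own signal where that was higher. The CCF arrays had between 25969 and 27298 probes well above background and the Ctrl arrays between 26095 and 28598, and the part of this gap in the count was not tested.

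Against the other fibres, CCF gave no probe with an adjusted p under 0.05: 0 of 29271 (0%) against VCF and 0 (0%) against RCF. At an unadjusted p under 0.05 there were 1699 probes (5.8%) against VCF and 2312 (7.9%) against RCF. By gene, the lower and higher shares were 2.85% and 1.02% against VCF and 5.16% and 2.69% against RCF. These contrasts share the CCF arrays with the comparison above, and all fibre groups share the same Ctrl arrays. Ear1 differed by -0.58 (SE 0.19, adjusted p = 0.709) against VCF and -0.64 (SE 0.19, adjusted p = 0.479) against RCF. Ear6 gave -0.55 (SE 0.18) and -0.57 (SE 0.18), and Fabp1 -0.57 (SE 0.20) and -0.58 (SE 0.20). The alveolar macrophage list had 11 of 17 genes lower than in VCF and 12 of 17 lower than in RCF, with medians of -0.17 and -0.16, and its scores lay between -0.43 and -0.17 in VCF and between -0.24 and -0.13 in RCF. CCF replicate 3 was lower than every array of those groups. Mt2 differed by -0.18 (SE 0.18) from VCF and 0.27 (SE 0.18) from RCF, and Mt1 by -0.24 (SE 0.20) and -0.08 (SE 0.20). Notch1 was higher in CCF than in VCF by 0.66 (SE 0.19, adjusted p = 0.709) and than in RCF by 0.89 (SE 0.19, adjusted p = 0.415). Mtf1 differed from RCF by -0.46 (SE 0.11, adjusted p = 0.415). Alox15, a lipoxygenase of eosinophils and resident macrophages, was dim, with 1 CCF array above background, and gave -2.09 (SE 0.42, adjusted p = 0.415) against RCF. Red cell genes were lower in CCF than in VCF in 13 of 13, with a median of -0.46, and than in RCF in 10 of 13, with a median of -0.14.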

How the data were processed

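Each of the 14 arrays measured total RNA of 1 mouse lung with 1 dye. Per the file headers, Agilent Feature Extraction 10.7.3.1 had subtracted the background within each array, and the deposited intensity values were not normalized between arrays. The authors' deposited table holds log2 values of 27496 probes, and 99.85% of them equal log2 of the processed intensity minus 1 constant per array within 0.01. It was used as an alternative.

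The deposited processed intensity was put on a log2 scale. Spots flagged as outliers were left out, replicate spots of a probe were averaged, and no spot was saturated. Each array's 75th percentile over the averaged non-control probes was then subtracted. The 29271 of 41174 probes well above background on at least 3 of 14 arrays were tested with limma 3.58.1 in R 4.3.3 in 1 fit of all 4 groups, with Benjamini-Hochberg adjustment over all probes. Every adjusted p in the text is from that fit. The fit was also run on simulated arrays with known changes, as a check that the size of a change was recovered. Those arrays had independent noise and no slide effect or dim area, so the check is no measure of power or error rate here. A gene is read at its brightest tested probe, which gives 14468 genes, and 16330 probes had no symbol. The number of arrays limits the precision.

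Genes were named by rule: in each direction the 12 of smallest p and the 8 of largest difference among those whose groups do not overlap and whose brighter group is above background, up to 5 detection switches, up to 4 members of each list with the direction of its median and 1 or more against it, and a fixed panel. For lists described in brief, some members that the rule gave are left out. A gene named for its motif, its probe status or its direction alone carries no value. The comparison, its lists and its panel were chosen with earlier results of these data known, so no count is independent support. Same-numbered samples correlated at 0.263, 0.0654 and 0.131 in their deviations from the group means, so the numbers were not taken as pairs. Alternatives covered background correction, normalization, filters, probes, slide, variance prior, array weights, single arrays and the dim area. Upstream windows are from RefSeq on GRCm38.p6. Figures were drawn with matplotlib 3.10.9.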

Additional observations from a re-analysis of the deposited data

How the results depend on the processing

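No probe passed an adjusted p of 0.05 between CCF and Ctrl by limma under any of the 19 fitted alternatives that test probes, and the lowest adjusted p of a named gene was 0.0659, without CCF replicate 3. At an unadjusted p under 0.05 the count of 1930 probes was 214 with normexp, 3496 without the filter on dim probes, and 1456 to 2854 when single arrays were left out. By gene, the 365 higher and 451 lower became 63 and 47 with normexp, the lower count was 198 with only CCF and Ctrl arrays in the fit, and the higher count was 550 when the tested probes of a gene were averaged. Leaving out single arrays gave 274 to 525 higher and 306 to 642 lower. The median of all genes was -0.0998 with normexp and -0.016 with cyclic loess. Of 60 named genes tried, 47 kept their sign in every fitted alternative. Many of them were named because their groups did not overlap, so leaving out an array could not turn their sign. That count is therefore no independent support. With the replicate number as a block (replicate block), 0 probes passed, 2224 had an unadjusted p under 0.05, and the block changed no call. The dim area was set missing as an alternative chosen after seeing the data, and it left 1881 probes at an unadjusted p under 0.05. Of 46 list medians, 6 kept their sign in every alternative and within both slides. Where a value below changed, the cause was not tested.

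Against VCF, 1 probe without a symbol passed without CCF replicate 2, and 1 (Tmigd1) with CCF replicate 1 as the only CCF array, where the lone array is assumed to vary like the other groups. Against RCF, 3 probes (Ldhc and 2 without a symbol) passed without CCF replicate 3, and 2 with CCF replicate 1 alone. The count was 0 without CCF replicate 1 in both contrasts.

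Single genes reversed as follows. With normexp the differences were -0.11 for Olfr1495, -0.22 for Taar4, -0.11 for Nr2c2, -0.37 for Fbxw24, -0.12 for Cyp3a41a and -0.052 for Apoa2. Quantile normalization gave -0.040 for Sftpc and -0.077 for Scgb1a1. With slide as a block Saa3 was 0.21 and Scgb1a1 -0.023. With CCF replicate 1 alone Il1b was -0.0058. With the dim area set missing Gpnmb was 0.068. Within slide 1 Gpnmb was 0.30, Timp1 0.35, Saa3 3.48 and Ccl2 0.42. Within slide 3 Siglecf was 0.14, Gpnmb 0.018, S100a8 -1.39, Sftpc -0.070, Scgb1a1 -0.084 and Il1b -1.96. Leaving out single arrays gave -0.64 to 0.068 for Gpnmb, -0.26 to 0.21 for Col1a1, -1.52 to 0.27 for Saa3, -0.40 to 0.81 for S100a8, -0.026 to 0.20 for Scgb1a1 and -0.35 to 1.32 for Il1b.

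List medians moved as follows. The alveolar macrophage median was -0.29 with CCF replicate 1 alone, -0.21 within slide 3, and -0.47 to -0.30 when single arrays were left out. The eosinophil median was -0.68 with normexp, -0.80 with CCF replicate 1 alone, -0.026 within slide 1, -1.12 within slide 3, and -0.65 to -0.046 when single arrays were left out. The red cell median was 1.24 with CCF replicate 1 alone and 0.13 to 0.67 when single arrays were left out. Within slide 1 the monocyte median was 0.25, that of CC chemokines 0.51 and that of smooth muscle 0.14. Within slide 3 the NRF2 median was -0.37 and that of smooth muscle 0.48. When single arrays were left out these ranged from -0.46 to -0.10 for monocytes, -0.68 to -0.15 for CC chemokines, -0.25 to -0.07 for NRF2 and 0.23 to 0.39 for smooth muscle. With 3 arrays in each group, of which slides 1 and 3 hold 1 pair each, small differences of single genes cannot be resolved.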
